A study of Arabidopsis thaliana with 64 samples.

Results

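The nuclear genes for light harvesting and photosystem subunits of *Arabidopsis thaliana* were examined in roots and shoots of plants that differed in genotype, light colour and phosphate (Pi) supply. The set held 47 genes of the 26795 to which a probe of the array could be assigned, and it was chosen by locus number. It comprised 21 antenna genes, 12 genes for subunits of photosystem I (PSI), 10 for subunits of photosystem II (PSII) and 4 for electron carriers. The antenna genes were *LHCA1* to *LHCA6*, the 5 copies of *LHCB1*, the 3 copies of *LHCB2*, *LHCB3*, the 3 copies of *LHCB4*, *LHCB5*, *LHCB6* and *LHCB7*. The PSI genes were the pairs of *PSAD*, *PSAE* and *PSAH* with *PSAF*, *PSAG*, *PSAK*, *PSAL*, *PSAN* and *PSAO*. The PSII genes were *PSBO1*, *PSBO2*, *PSBP1*, *PSBQ1*, *PSBQ2*, *PSBR*, *PSBW*, *PSBX*, *PSBY* and *NPQ4*, and the carriers were *PETC*, *PETE1*, *PETE2* and *FD2*.

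In the thylakoid membrane, chlorophyll proteins of the LHCA family pass light energy to PSI and those of the LHCB family pass it to PSII. PSII splits water and sends electrons through the cytochrome complex, which carries the Rieske protein, and through plastocyanin to PSI, which reduces ferredoxin. The reaction centres are encoded in the plastid, whereas the antenna proteins and many outer subunits are encoded in the nucleus, where their transcription is promoted by light in leaves. The bZIP transcription factor HY5 acts downstream of photoreceptors and promotes such light responses, and BBX32 is a B-box protein of light signalling.

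The 64 one-colour arrays fell into 24 groups. In the white-light sets, roots and leaves (called shoots here) of 4-week-old plants were sampled with 3 replicates per group. One set compared *hy5-215*, a chemically induced mutant of *HY5*, with its own WT Col-0, and the other compared *35S:BBX32-SRDX* with another WT Col-0. In *35S:BBX32-SRDX*, BBX32 is fused to the SRDX repression domain, a fusion that represses target genes dominantly, and the 35S promoter drives it in most tissues, so the line is not a loss of *BBX32*. In the light set, roots and shoots of 3-week-old WT Col-0 seedlings grown under blue (B) or red (R) light were sampled with 2 replicates per group. The labels give all samples the same temperature and the same cycle of light and dark, whereas the paper describes the B and R light as continuous. Every genotype and light was grown with sufficient Pi and with deficient Pi. The replicates are stated to be biological, and the p-values measure the spread between these samples.

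The level of a gene is given as the log2 of its processed signal minus the 75th percentile of that array, so that 0 is the 75th percentile and a difference of 1 is 2-fold. In root samples the level of *HY5* was -0.90 to -0.37 in *hy5-215* and 1.10 to 1.63 in its WT. The level of *BBX32* in roots of *35S:BBX32-SRDX* was 5.02 to 6.13. In the corresponding WT it was -5.92 to -5.25 except for the Pi-deficient replicate 2, at -1.92. In shoots the level of *HY5* did not separate the genotypes. It was -0.87, -1.47 and -1.55 in *hy5-215* and -0.63, -1.77 and -1.41 in WT with sufficient Pi, and -0.61, -1.82 and -1.81 against -0.28, -1.5 and -2.35 with deficient Pi. *BBX32* in shoots was at 4.34 to 4.76 in *35S:BBX32-SRDX* and -4.49 to -3.22 in its WT. The 8 root markers (such as *PYK10* and *CASP1*) summed to 6.77 to 8.47 in roots and 4.06 to 6.41 in shoots. *PYK10*, the brightest, made up most of this sum, and not every root marker separated the organs. In WT with deficient Pi *IRT1* averaged -8.85 in roots and -8.72 in shoots (*hy5-215* set) and -8.66 and -7.91 (*35S:BBX32-SRDX* set). With sufficient Pi it was higher in roots, at -1.79 against -8.45 and -0.73 against -7.52. The 5 shoot markers (such as *TGG1* and *YAB1*) summed to 5.83 to 6.81 in shoots. In roots the shoot markers summed to -3.84 to -1.70, except for the WT Pi-deficient replicate 1 of the *hy5-215* set, at -0.47. All 5 shoot markers were well above background there, but only *TGG1* (-0.82), *TGG2* (-4.64) and *YAB1* (-7.18) exceeded both other replicates. *TMM* (-3.35) and *MYB60* (-6.15) did not. For its sum it is called the array of high shoot markers below. The main counts past the test and the main medians that use this array are also given without it. Counts of groups without overlap are given only with it. In bulk samples, fewer cells of a type and less RNA per cell cannot be told apart.

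All 47 genes were well above background on each of the 32 shoot arrays, 43 on each of the 24 white-light root arrays, and 34 on each of the 32 root arrays. In shoots of the white-light sets the limit was at the other end, since 15 of the 47 genes were saturated on at least 1 of 24 arrays. *LHCB1.3* (a major trimeric antenna protein), *PSBO1* (the oxygen-evolving complex) and *PETE2* (the main plastocyanin) were saturated on all 24. *LHCB1.2* was saturated on 22, *LHCB1.5* and *PSAF* on 15, *LHCA1* on 14, *PSBR* on 13 and *PSBW* on 11, and 32 genes never were. No gene of the set was saturated in roots or in the light set. The 5 copies of *LHCB1* are nearly identical and lie in clusters on chromosomes 1 and 2, so that probes of one copy may read another, and their single values are uncertain.

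Every one of the 47 genes was lower in roots than in shoots in each of the 8 WT pairs of light, set and Pi level, and all passed the test there. A gene passed where limma's p, adjusted by the Benjamini-Hochberg method over all genes tested, was under 0.05. Of all genes tested, 24.9% and 24.8% were lower in roots in the WT of *hy5-215* with deficient and sufficient Pi, 25.1% and 25.5% in the WT of *35S:BBX32-SRDX*, 24.5% and 23.5% under B light, and 23.0% and 22.5% under R light. The median over all genes was 0.27 to 0.39. The median log2 difference of the 47 genes was -6.72 at deficient Pi and -6.00 at sufficient Pi in the WT of *hy5-215*, and -6.80 and -6.07 in the WT of *35S:BBX32-SRDX*. Without the root array of high shoot markers the first of these was -7.05, with all 47 genes still lower. Under B light it was -6.56 at deficient and -7.44 at sufficient Pi, and under R light -8.92 and -8.32. *LHCB7* (AT1G76570), a rare antenna protein related to LHCB4, had the smallest difference in all 8, between -3.71 and -1.82. *LHCA6* (AT1G19150), which with *LHCA5* links PSI to the NDH complex, had the largest in 3 of the 4 white-light pairs, between -10.36 and -9.58. Of 29 related chloroplast genes (ATP synthase, ferredoxins and their reductases, assembly factors, thylakoid shaping and LHC-like proteins), 22 to 24 were lower in roots and 3 to 5 higher, the highest being the root-type reductase *RFNR2* in 6 of the 8 pairs and the root-type ferredoxin *FD3* in the other 2. In the WT of *hy5-215* with deficient Pi *RFNR2* was 2.28 higher in roots and the leaf reductase *LFNR2* was at -7.26. Without the root array of high shoot markers 23 of the 29 related genes were lower and 2 higher in that pair.

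For a gene saturated on every array of the brighter group, or not well above background on every array of the dimmer one, only a bound can be given. There the dim group was set to the lowest detected signal of each array where the gene's own signal was lower, and a saturated spot was kept at its value. At deficient Pi in the WT of *hy5-215*, *LHCB1.3* was at least 52.7-fold, *PSBO1* at least 42.1-fold and *PETE2* at least 57.8-fold lower in roots. At sufficient Pi these bounds were 33.5-fold, 28-fold and 41.2-fold. Under B light *LHCB2.3* was at least 303-fold lower in roots at deficient Pi and at least 1290-fold at sufficient Pi.

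The plot of complex means gives the levels on the 32 root arrays. In WT roots with sufficient Pi the mean over the 21 antenna genes was -0.39 ± 0.15 (SD, n = 3) in the *hy5-215* set and -0.19 ± 0.31 in the *35S:BBX32-SRDX* set. In *hy5-215* it was -2.90 ± 0.03 and in *35S:BBX32-SRDX* -1.14 ± 0.77. With deficient Pi the corresponding means were -1.33 ± 0.57 and -0.92 ± 0.62 in WT, -3.77 ± 0.52 in *hy5-215* and -2.65 ± 0.58 in *35S:BBX32-SRDX*. These means describe the arrays and carry no test.

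**Figure D1:**
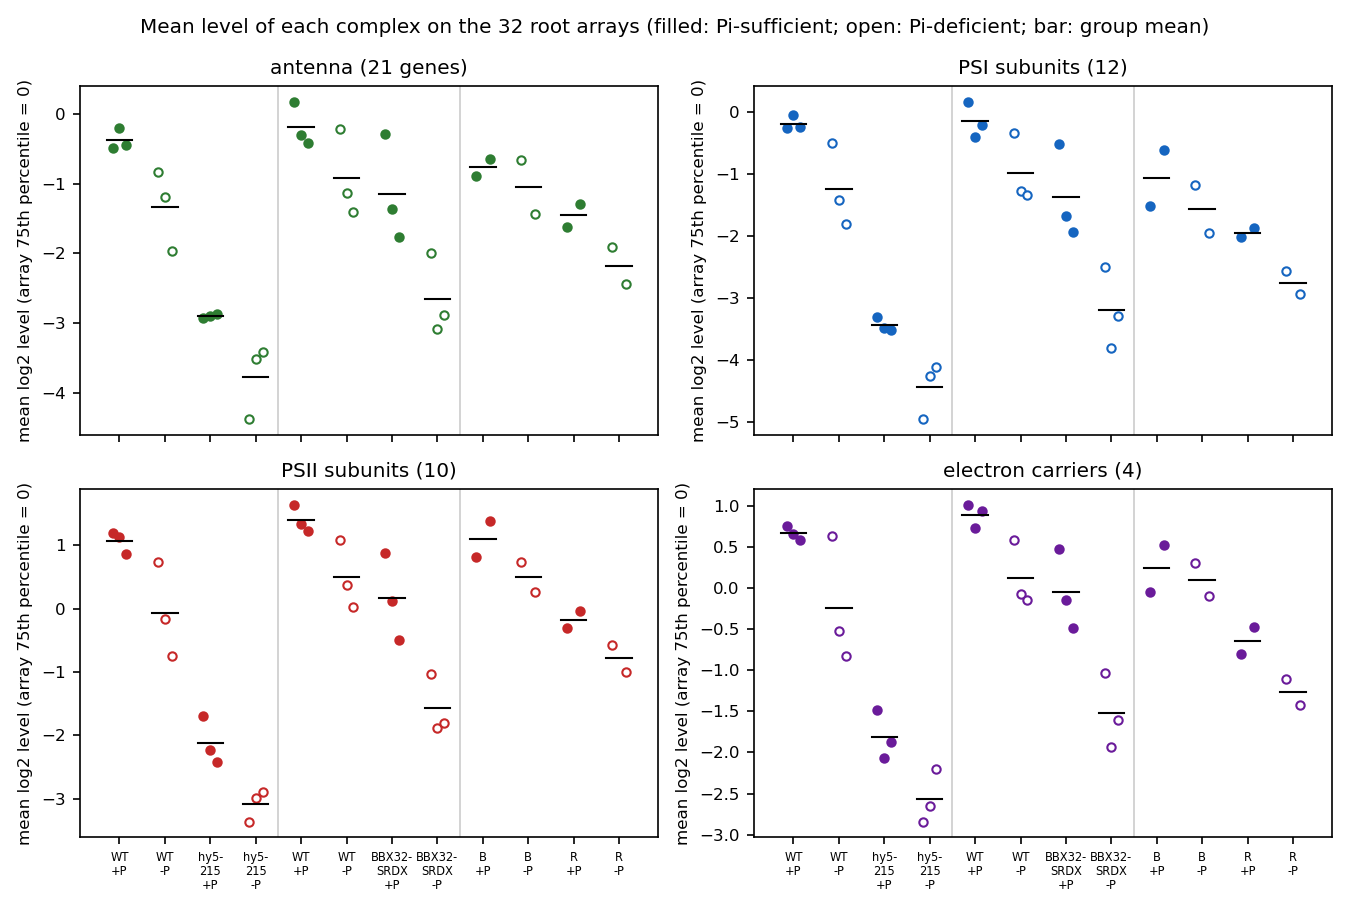
Mean log2 level (0 is the 75th percentile of the array) of the genes of each complex on each of the 32 root arrays, by genotype or light and Pi level, with bars for group means. In all 4 panels the *hy5-215* arrays lie below every WT array of their set, and the R light arrays lie below the B light arrays at the same Pi level.

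The loss of HY5 was compared with WT in roots at each Pi level. With deficient Pi, 42 of the 47 genes were lower in *hy5-215* roots and none was higher (limma, adjusted p under 0.05), where 8.97% of all genes tested were lower. Of the 42, 40 were lower by more than 2-fold, as were 3.17% of all genes. With sufficient Pi it was also 42 lower and none higher, against 7.34% of all genes, and 41 by more than 2-fold, against 3.02%. The median log2 difference was -2.83 with deficient and -3.22 with sufficient Pi, beside medians over all genes of -0.00 and 0.03. For 43 genes with deficient Pi and 45 with sufficient Pi, no *hy5-215* array reached any WT array, which held for 18.4% and 12.4% of all genes. With the median of detected probes as the scale, the median over all genes was 0.13 and 0.15, and those of the 47 genes stayed -2.83 and -3.25 relative to it.

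All 12 PSI genes, all 10 PSII genes and all 4 carrier genes were lower in *hy5-215* roots at both Pi levels, and so were 16 of 21 antenna genes. The median log2 difference with deficient Pi was -3.51 for PSI, -2.79 for PSII, -2.56 for the antenna and -1.99 for the carriers. With sufficient Pi the medians were -3.50, -3.05, -2.77 and -2.11. The summed root markers were 7.0 to 7.12 in *hy5-215* and 6.77 to 7.04 in WT with deficient Pi, and their part in the result was not tested. Without the WT array of high shoot markers the count with deficient Pi was 41, with 39 genes lower by more than 2-fold. The median was then -2.53, with -3.10 for PSI, -2.43 for PSII, -2.37 for the antenna and -1.54 for the carriers. The counts by complex were then the same except that *FD2* did not pass. *LHCB1.1*, *PSAD1*, *NPQ4* and *PETE2* differed by -4.02, -3.82, -4.43 and -3.81 without it, and each passed.

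The antenna gene of largest difference with deficient Pi was *LHCB1.1* (AT1G29920), a component of the trimeric antenna of PSII. Its level was -5.69, -3.87 and -3.04 in *hy5-215* roots and 0.43, -0.07 and -0.29 in WT. The groups did not overlap, and the difference was -4.22 (SE 0.53, 18.7-fold, limma adjusted p = 0.000503). Its 3 probes did not agree in size, however, with differences from -4.22 to -0.45, and the probe that never saturated gave -0.45 (limma adjusted p = 0.762). The probes of *LHCB1.2* ranged only from -4.25 to -3.90.

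With sufficient Pi the antenna gene of largest difference was *LHCA5* (AT1G45474). Its level was -5.66, -6.09 and -5.79 in *hy5-215* roots and -1.18, -1.38 and -1.78 in WT. The 3 mutant arrays lay far below the 3 WT arrays, with a difference of -4.40 (SE 0.34, 21.1-fold, limma adjusted p = 4.04e-05). With deficient Pi it was -6.82, -6.77 and -6.36 in the mutant and -2.08, -2.91 and -3.64 in WT, again without overlap.

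Among PSI genes *PSAD1* (AT4G02770), whose product docks ferredoxin on the stromal side, differed most with deficient Pi. Its level was -4.74, -3.92 and -3.45 in *hy5-215* and 0.77, 0.03 and -0.46 in WT. The groups were separated by a wide gap, with a difference of -4.15 (SE 0.34, 17.7-fold, limma adjusted p = 4.95e-05). With sufficient Pi *PSAL* (AT4G12800), which helps dock the mobile antenna, differed most among PSI genes, with -6.22, -6.69 and -6.96 in *hy5-215* and -2.89, -2.53 and -2.88 in WT. That difference, without overlap, was -3.85 (SE 0.52, 14.5-fold, limma adjusted p = 0.000998). *PSAN*, a lumenal subunit, had the smallest PSI differences, -1.08 with deficient and -1.5 with sufficient Pi.

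*NPQ4* (AT1G44575), which encodes PsbS, the protein that triggers the dissipation of excess light energy, had the largest difference of the whole set at both Pi levels. With deficient Pi its level was -7.10, -5.97 and -5.66 in *hy5-215* roots and 0.29, -1.22 and -2.41 in WT. With sufficient Pi it was -4.33, -5.53 and -6.59 in the mutant and 0.21, -0.42 and -1.24 in WT. At both levels the highest mutant array was below the lowest WT array, although the replicates of either genotype were spread over more than 1 log2 unit. The difference was -5.13 (SE 0.76, 35.1-fold, limma adjusted p = 0.00123) with deficient Pi and -5.0 (SE 0.76, 32.1-fold, limma adjusted p = 0.00182) with sufficient Pi. Other PSII genes with large differences with deficient Pi were the oxygen-evolving subunits *PSBQ1* (-3.92) and *PSBQ2* (-3.71), while *PSBX*, a small membrane subunit, was at -2.01.

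Of the carriers, *PETE2* (AT1G20340) differed most. In *hy5-215* roots its level was -4.23, -3.09 and -2.41 with deficient Pi and -1.68, -2.22 and -2.21 with sufficient Pi. In WT it was 2.19, 0.75 and 0.39 with deficient Pi and 2.29, 2.35 and 2.14 with sufficient Pi. No mutant array reached a WT array, and the differences were -4.35 (SE 0.51, 20.4-fold, limma adjusted p = 0.000321) and -4.29 (SE 0.51, 19.6-fold, limma adjusted p = 0.000443). *PETE1*, the minor plastocyanin, was at -1.56 and -1.48, *PETC*, the Rieske protein, at -2.43 and -2.74, and *FD2*, the main leaf ferredoxin, at -0.98 and -1.38, with all 3 past the test at both levels. Without the WT array of high shoot markers *FD2* was at -0.67 with deficient Pi and did not pass (limma adjusted p = 0.0872).

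**Figure D2:**
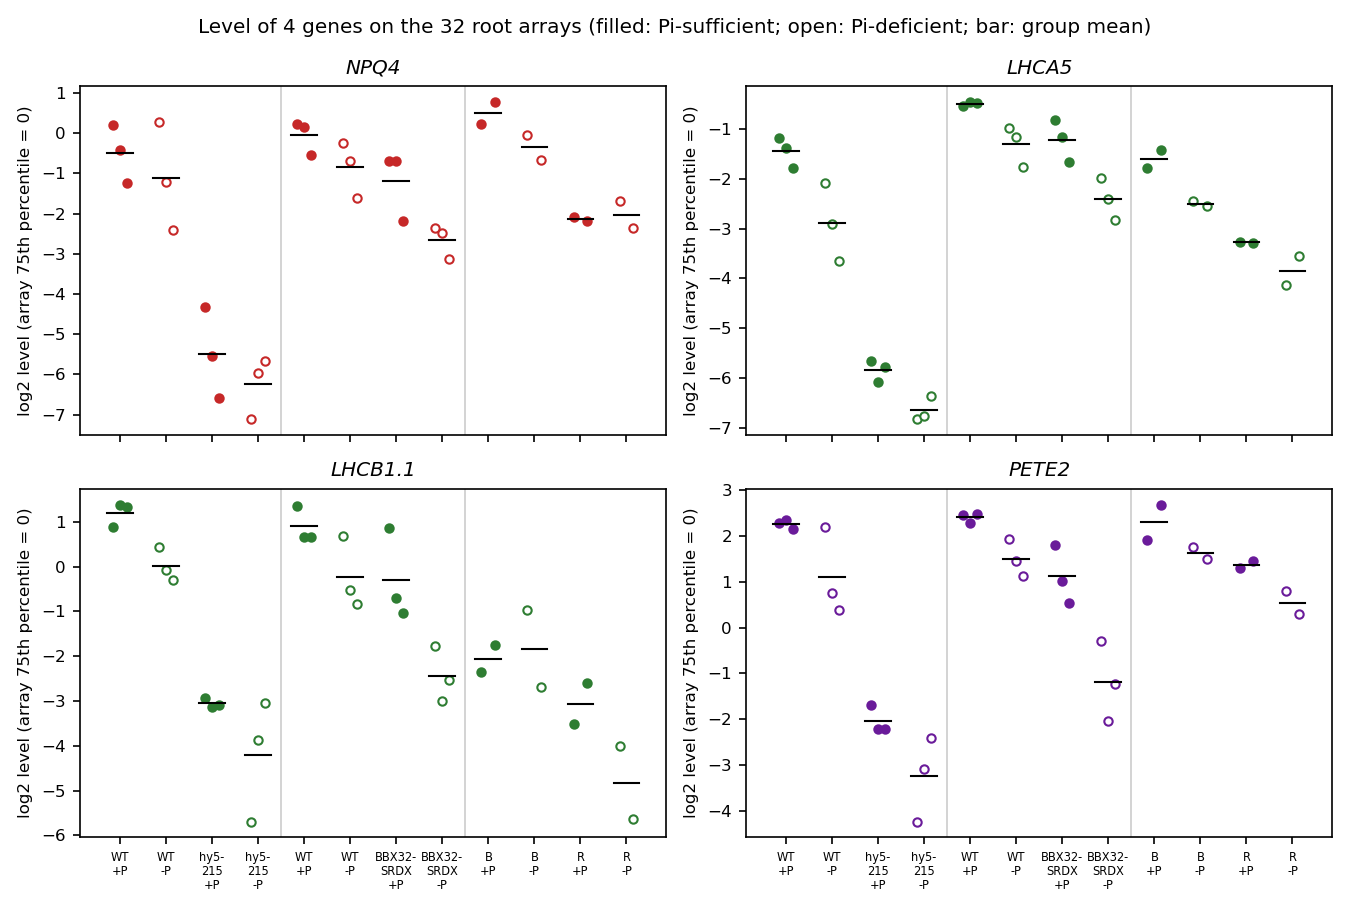
Log2 level (0 is the 75th percentile of the array) of *NPQ4*, *LHCA5*, *LHCB1.1* and *PETE2* on each of the 32 root arrays, with bars for group means. For *NPQ4* and *LHCA5* the 6 *hy5-215* arrays lie below all other root arrays. The *35S:BBX32-SRDX* arrays lie, for *NPQ4* and *LHCA5* only, within or just below the range of all WT root arrays pooled. At the same Pi level they lie, for *NPQ4* and *LHCA5*, below every WT array of their own set.

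The same 5 antenna genes did not pass the test at either Pi level, namely *LHCA4*, *LHCA6*, *LHCB2.1*, *LHCB2.3* and *LHCB4.3*. *LHCA4*, a PSI antenna protein that pairs with LHCA1, was -0.75 with deficient Pi (limma adjusted p = 0.111), with levels of -0.22, 0.05 and -0.42 in *hy5-215* and 0.90, 0.93 and -0.16 in WT, which overlapped. *LHCA6* was -2.56 (limma adjusted p = 0.0907). The stress-associated *LHCB4.3* was -0.66 (limma adjusted p = 0.203), and *LHCB2.1*, at -5.86 or below on every array, was -0.30. *LHCB2.3* was the one gene of opposite sign, at 1.26 (limma adjusted p = 0.292), with a WT array (Pi-deficient replicate 3) at -9.07 and not well above background.

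Each slide carried the 4 groups of 1 organ for 1 replicate number. With the slide as a block 44 genes were lower in *hy5-215* roots with deficient and 43 with sufficient Pi. Within the 3 slides the median difference of the set was -3.81, -2.73 and -2.14 with deficient Pi and -2.85, -3.24 and -2.99 with sufficient Pi. The position on the slide was fixed per group, so that position and group cannot be told apart. All members with several usable probes, 31 with deficient and 34 with sufficient Pi, had probes of the same sign.

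Of the 29 related genes, 16 were lower in *hy5-215* roots with deficient Pi (15 without the WT array of high shoot markers) and 21 with sufficient Pi, and none was higher. The largest differences were those of *CURT1A*, which bends thylakoid membranes, at -3.87 with deficient Pi, and of *PSB28*, a PSII assembly factor, at -4.13 with sufficient Pi.

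The repressor line was compared with WT in the same way. With deficient Pi, 38 of the 47 genes were lower in roots of *35S:BBX32-SRDX* and none was higher, where 5.17% of all genes tested were lower, and 36 by more than 2-fold, where 2.69% of all genes were. The median log2 difference was -2.16, beside 0.03 over all genes. All 10 PSII genes, all 4 carriers, 11 of 12 PSI genes and 13 of 21 antenna genes passed the test, with medians of -1.96, -1.54, -2.27 and -1.73. The genes that did not pass were *PSAL*, *LHCA1*, *LHCA4*, *LHCA6*, *LHCB2.1*, *LHCB2.3*, *LHCB3*, *LHCB7* and *LHCB4.3*, of which *LHCB4.3* (0.19) alone had a positive difference. Of 33 genes with several usable probes, 30 had probes of 1 sign, and the probes of *LHCB1.1*, *LHCB1.4* and *LHCB4.1* disagreed. The shoot markers summed to -3.36 to -2.81 in the line and -3.68 to -2.83 in WT.

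The count of 38 depended on single arrays. It was 19 without the Pi-deficient replicate 2 of the line, 21 without its replicate 3 and 20 without WT replicate 1. Without WT replicate 2, the array with a *BBX32* level of -1.92, it was 28. With the slide as a block it was 43, and the medians within the 3 slides were -2.11, -2.47 and -1.80.

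*LHCB1.5* (AT2G34420) was the antenna gene of largest difference with deficient Pi, with levels of -0.29, -2.08 and -2.39 in the line and 2.72, 0.98 and 0.48 in WT. The groups did not overlap, and the difference was -2.98 (SE 0.78, 7.89-fold, limma adjusted p = 0.0351), a call that was lost without the line's replicate 2 or 3 or without WT replicate 1 or 2. *PSAD1* was at -1.28, -2.98 and -2.57 in the line and at 1.34, 0.30 and 0.16 in WT. This difference, the largest among PSI genes and also without overlap, was -2.87 (SE 0.51, 7.33-fold, limma adjusted p = 0.00553).

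*PSBQ2* (AT4G05180) was the PSII gene of largest difference, with -2.95, -5.02 and -3.97 in the line and -0.25, -1.26 and -1.45 in WT, again without overlap. It fell by 2.99 on the log2 scale (SE 0.55, 7.96-fold, limma adjusted p = 0.00685). *PETE2* was at -0.30, -2.03 and -1.23 in the line and at 1.94, 1.45 and 1.12 in WT. The highest array of the line was below the lowest of WT, with a difference of -2.69 (SE 0.43, 6.45-fold, limma adjusted p = 0.00308).

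With sufficient Pi no gene of the set passed limma's test in roots of *35S:BBX32-SRDX* without the slide as a block, where 0.280% of all genes were lower. The differences were nevertheless all negative (45 of 47 with the median of detected probes as the scale), with a median of -1.19, and 34 had an unadjusted p under 0.05. In 26 genes the 2 groups did not overlap, against 7.04% of all genes. The medians were -1.12 for the antenna, -1.29 for PSI, -1.24 for PSII and -0.96 for the carriers. The 3 replicates of the line were spread widely, with antenna means of -0.29, -1.37 and -1.77, where WT had 0.17, -0.31 and -0.42. With the slide, which pairs the samples of this set, as a block, 42 genes were lower, and the medians within the slides were -0.68, -1.26 and -1.70. Without the line's replicate 1 the count without the block was 4. The test of the difference between the 2 Pi levels (genotype by Pi) had no gene of the set past the threshold, where 0.0400% of all genes were lower. Its median was -0.82, and 3 genes had an unadjusted p under 0.05.

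Of the 29 related genes 15 were lower in the line with deficient Pi, the largest difference being *CURT1C* at -2.48, and 3 with sufficient Pi, the largest being the minor ferredoxin *FD1* at -0.94. No related gene was higher at either level.

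**Figure D3:**
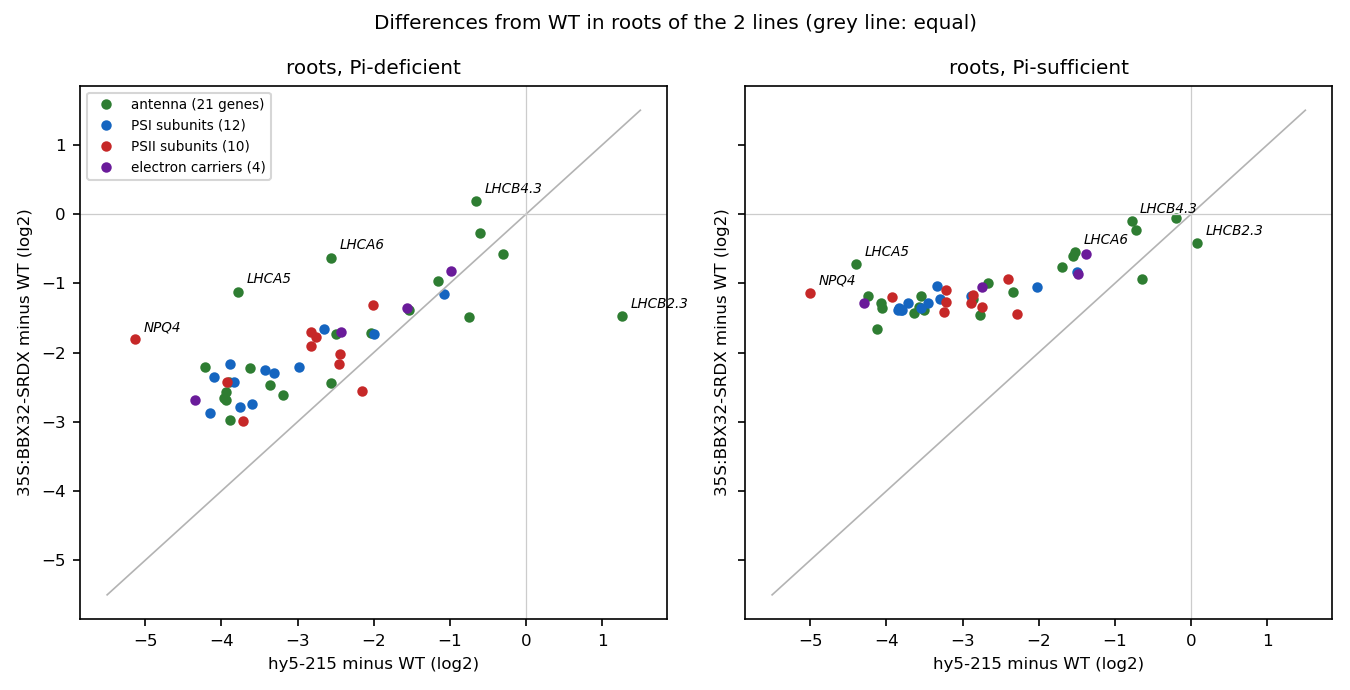
Log2 difference from WT in roots of *hy5-215* (x axis) and *35S:BBX32-SRDX* (y axis) for each of the 47 genes at each Pi level, coloured by complex, with a grey line where both are equal. Most genes lie above the line, with *NPQ4* and *LHCA5* farthest from it.

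The effects of the 2 lines were then set against each other in a fit of all 24 white-light root arrays, a comparison chosen after the values were seen. With deficient Pi *LHCA5* alone of the set passed, at -2.66 (SE 0.45, limma adjusted p = 0.00396), where 0.829% of all genes were more strongly lowered in *hy5-215*. Without the WT array of high shoot markers its difference was -2.26 (limma adjusted p = 0.00806), and the count was still 1. With sufficient Pi 8 genes passed, against 1.07% of all genes, namely *LHCA5*, *PSAE2*, *PSAK*, *PSBP1*, *PSBQ1*, *NPQ4*, *PSBX* and *PETE2*. *LHCA5* differed by -3.68 (SE 0.45, limma adjusted p = 0.000152) and kept its call without any single array, as it did when slides entered as blocks.

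In *35S:BBX32-SRDX* roots the level of *LHCA5* was -0.82, -1.16 and -1.66 with sufficient Pi, just below the WT values of -0.53, -0.45 and -0.48. With deficient Pi it was -1.98, -2.40 and -2.83 in the line and -0.97, -1.15 and -1.75 in WT, without overlap. The difference between line effects for *NPQ4* was -3.86 with sufficient Pi (SE 0.93, limma adjusted p = 0.0443), and this call was lost in 9 of the 12 fits that left out 1 array. With deficient Pi it was -3.33 (limma adjusted p = 0.0965, or 0.0155 with slides as blocks). The count of 8 was 1 without *35S:BBX32-SRDX* replicate 1, without its WT replicate 2 or without the *hy5-215* WT replicate 2, and 2 without *hy5-215* replicate 3. It was 3 without *hy5-215* replicate 2, *35S:BBX32-SRDX* replicate 2, *hy5-215* WT replicate 1 or either of the other WT arrays of *35S:BBX32-SRDX*, 4 without *hy5-215* WT replicate 3, and 30 with the block. The count of 1 with deficient Pi was 2 without the *hy5-215* WT replicate 3 and 4 with the block. Of the related genes *CURT1A* passed at both levels, at -3.06 and -3.35.

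In shoots, neither line had a gene of the set past limma's threshold at either Pi level, with or without the slide as a block. Of the 47 genes 15 were saturated on at least 1 of these 24 shoot arrays and 3 on all of them, which can hide a difference. The *HY5* levels of *hy5-215* and WT overlapped in these shoots. For *hy5-215* the median difference was 0.03 with deficient and -0.00 with sufficient Pi, and 1 and 0 genes had an unadjusted p under 0.05, where 0.163% and 0.0373% of all genes passed as lower. For *35S:BBX32-SRDX* it was -0.07 and -0.08, with 0 and 3 genes at an unadjusted p under 0.05, where 0.121% and 0% of all genes passed as lower. The split of signs followed the scale. In *hy5-215* with deficient Pi 16 genes were negative and 31 positive, against 3 and 44 with the median of detected probes and 25 and 22 with quantile normalization. With sufficient Pi the split was 24 and 23, against 8 and 39 and against 12 and 35. In *35S:BBX32-SRDX* it was 39 and 8 with deficient Pi (21 and 26 with quantile normalization) and 34 and 13 with sufficient Pi (27 and 20, and 26 and 21). *NPQ4*, the gene of largest difference in roots, was at 5.65 to 6.15 on all 12 shoot arrays of the *hy5-215* set. *CURT1A* was the only related gene past the test in shoots of either line, at -1.63 and -1.67 in *hy5-215*.

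The difference between organs was tested itself. With deficient Pi, the *hy5-215* effect was more negative in roots than in shoots for 38 of the 47 genes (limma, 2.20% of all genes), with a median of -2.92, and these were 14 antenna, 12 PSI, 10 PSII and 2 carrier genes. Without the WT root array of high shoot markers it was 38 as well, with a median of -2.59. With sufficient Pi it was 39 genes (2.06% of all genes) with a median of -3.09. For *35S:BBX32-SRDX* with deficient Pi it was 25 genes (1.69% of all genes), with a median of -2.03, and 5 of these were antenna genes. That count was 12 without the line's root replicate 2, 16 without its root replicate 3, 13 without WT root replicate 1 and 16 without WT shoot replicate 1. It was 40 with the replicate number as a block. With sufficient Pi it was 0 genes (0.0389% of all genes), and 25 had an unadjusted p under 0.05. With the slide as a random block, an alternative chosen after seeing the data, the *35S:BBX32-SRDX* counts were 43 with deficient and 20 with sufficient Pi. With the brightest never-saturated probe of each gene the 4 counts were 36, 36, 24 and 0.

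**Figure D4:**
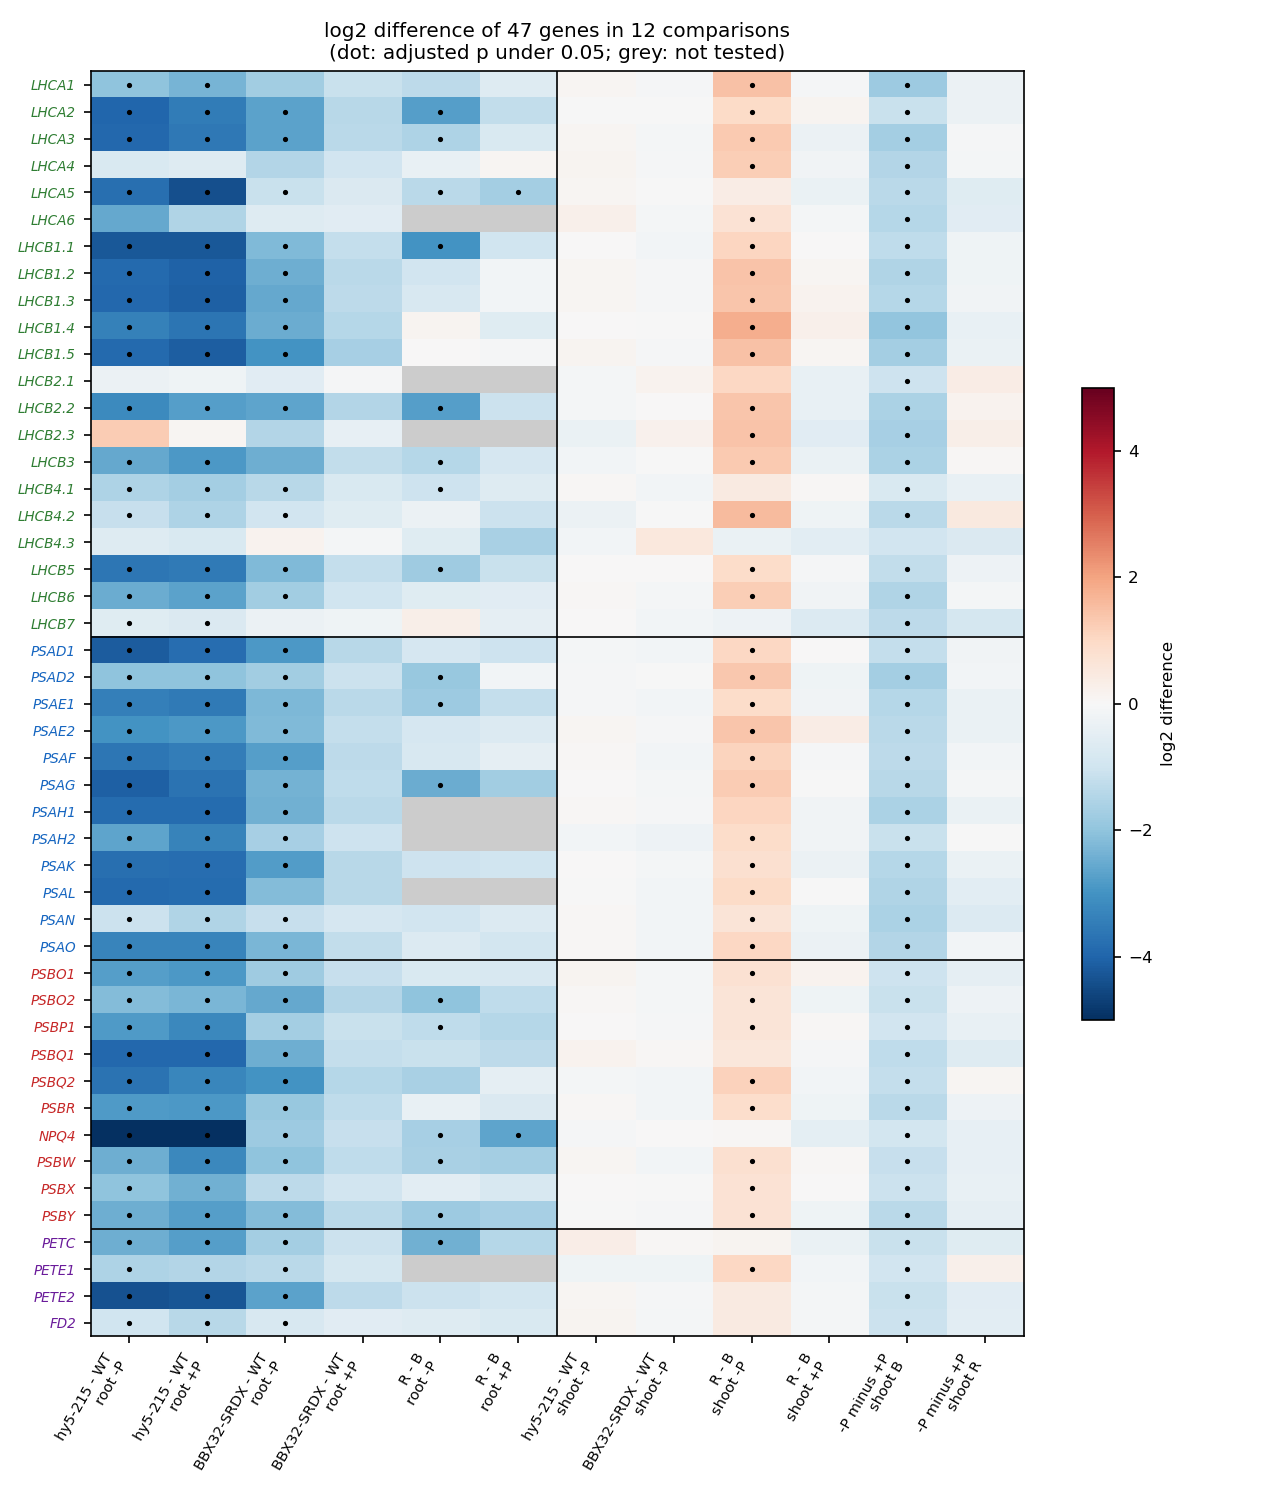
Log2 difference (colour scale) of each of the 47 genes, grouped by complex, in 12 comparisons, 6 in roots on the left and 6 in shoots on the right. Dots mark genes past limma's adjusted p of 0.05 in fits without a block, and grey cells were not tested. The *hy5-215* columns in roots are blue for 46 genes, whereas in shoots the 2 line columns are nearly white and the light comparisons carry the colour.

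The Pi response of roots was compared within each genotype. These comparisons share their arrays with the line comparisons above. In the WT of the *hy5-215* set 25 of 47 genes were lower with deficient Pi and none was higher, where 14.1% of all genes were lower, and the median was -1.02. Without the WT array of high shoot markers it was 33 genes, with a median of -1.37. Of the 25, 9 were antenna, 7 PSI, 8 PSII and 1 carrier genes. Of the 33 without that array, 10 were antenna, 11 PSI, 8 PSII and 4 carrier genes. The count was 11 without the Pi-sufficient replicate 2 or the Pi-deficient replicate 3, 13 without the Pi-deficient replicate 2 and 16 without the Pi-sufficient replicate 3. The medians within slides were -0.35, -1.28 and -1.56.

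With all arrays in the fit *LHCB1.5* fell most in these roots, from 1.94, 2.81 and 1.86 with sufficient to 0.79, 1.16 and -0.61 with deficient Pi. The groups did not overlap, and the difference was -1.76 (limma adjusted p = 0.0253), a call that was lost without the Pi-deficient replicate 3 or the Pi-sufficient replicate 2. Without the array of high shoot markers *PSBQ1* fell more than *LHCB1.5*, from 0.02, -0.08 and -0.07 to -1.95 and -2.34. In *hy5-215* roots 13 genes were lower and none was higher (6.83% of all genes were lower), with a median of -0.93. This count was 3 without the Pi-deficient replicate 1 and 5 to 7 without any of the 3 Pi-sufficient replicates or the Pi-deficient replicate 2. *PSBQ1* (AT4G21280), already low in the mutant at -3.64, -4.02 and -4.26, was at -5.95, -5.41 and -5.20 with deficient Pi. The difference of -1.55 (limma adjusted p = 0.0343) was without overlap and lost its call without any 1 of the 6 arrays. The genotype by Pi test in this set had no gene past limma's threshold and none at an unadjusted p under 0.05, where 0.259% of all genes were lower and 0.291% higher.

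In the WT of the *35S:BBX32-SRDX* set 1 gene was lower with deficient Pi, where 8.53% of all genes were lower, although the median was -0.82 and 15 genes had an unadjusted p under 0.05. That gene was *PSBX* (AT2G06520), at 2.31, 2.0 and 2.03 with sufficient and 1.64, 1.12 and 1.08 with deficient Pi. The groups did not overlap, with a difference of -0.83 (limma adjusted p = 0.0334) that lost its call in 5 of the 6 fits without 1 array. The count was 5 without the Pi-deficient replicate 1, 0 without any 1 of the other 5 arrays, and 37 with the slide as a block. In *35S:BBX32-SRDX* roots 26 genes were lower (3.71% of all genes), 25 by more than 2-fold (1.74%), with a median of -1.76. They were 6 antenna, 9 PSI, 8 PSII and 3 carrier genes, and with the block the count was 43. It was 0 with only the compared groups in the fit and 16 without a filter on dim genes. Without the line's Pi-deficient replicate 3 it was 5, without its Pi-deficient replicate 2 it was 6, and without its Pi-sufficient replicate 1 or 2 it was 7. *PSBQ1* was at -0.43, -1.35 and -1.84 with sufficient and at -2.99, -4.52 and -3.94 with deficient Pi, which did not overlap. It differed by -2.61 (limma adjusted p = 0.00756). Of the related genes 15 were lower in the WT of *hy5-215*, 6 in *hy5-215*, 6 in the other WT and 14 in *35S:BBX32-SRDX*, and none was higher in any of the 4. Without the array of high shoot markers the first count was 21, and 1 related gene was higher. The largest differences were those of *CAO*, the chlorophyll b enzyme, at -1.28 in the first, and of *CURT1C* at -1.25, -1.08 and -2.19 in the others.

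The colour of light was compared in WT roots of the light set, with 2 arrays per group. Of the 47 genes 40 could be tested, since *LHCA6*, *LHCB2.1*, *LHCB2.3*, *PSAH1*, *PSAH2*, *PSAL* and *PETE1* were not well above background on both arrays of any root group. *LHCA2* was well above background on only 2 of the 8 root arrays, so it entered through a single group. Its highest levels were those under B light with deficient Pi, -2.70 and -3.56, against -5.21 and -6.58 under R light. Its comparison therefore depends on the filter and is no support for a lower level under R light. The 40 genes and their median nevertheless include it. With deficient Pi 17 of 40 were lower under R than under B light and none was higher, where 2.41% of all genes were lower. All 17 were lower by more than 2-fold, as were 2.02% of all genes. The median was -1.07, beside 0.07 over all genes, and 31 genes had an unadjusted p under 0.05. The 17 were 8 of 18 antenna genes, 3 of 9 PSI genes, 5 of 10 PSII genes and 1 of 3 carriers. The count was 0 without the B light replicate 1, 1 without the R light replicate 2 and 6 without the R light replicate 1. It was also 0 without a filter on dim genes, 4 with the authors' value table, 5 with normexp background correction and 11 with the mean of all probes. The summed shoot markers were -1.93 and -1.70 under B and -2.65 and -2.35 under R light, with none or 1 of 5 well above background on each array, and their part in the result was not tested. On the B light replicate 1 *TGG1* was at -3.39, against -6.15 on replicate 2, and *TGG2*, *MYB60* and *YAB1* were also higher. *TMM* was lower, at -3.87 against -2.00. The photosynthetic genes *RBCS1A*, *RCA* and *CA1* were at 3.64, 0.70 and -0.07 on replicate 1. On replicate 2 they were at 2.49, -0.94 and -2.36, and their part was not tested either.

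Among the copies of *LHCB1*, *LHCB1.1* was at -0.98 and -2.68 under B and at -4.0 and -5.64 under R light, and since it was not well above background on either R array it was at least 5.67-fold lower (limma adjusted p = 0.0371). Its never-saturated probe gave a difference of -0.64 (limma adjusted p = 0.179). *LHCB1.4* and *LHCB1.5* differed by 0.13 and 0.03 and did not pass, while the 4 probes of *LHCB1.5* disagreed in sign. The monomeric antenna gene *LHCB5* passed at -1.76, whereas *LHCB6*, at -0.62, did not.

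*PSAG* (AT1G55670), which helps bind the PSI antenna, was at -0.44 and -1.29 under B and at -2.78 and -3.91 under R light. The groups did not overlap, and it fell by 2.48 (SE 0.49, 5.58-fold, limma adjusted p = 0.0246). *PSBO2* (AT3G50820), the minor copy of the oxygen-evolving subunit, was at -0.12 and -1.13 under B and at -2.69 and -2.60 under R light. It differed by -2.02 (SE 0.36, 4.06-fold, limma adjusted p = 0.0173), whereas *PSBO1* was at -0.75 and did not pass. *PETC* (AT4G03280) was at 0.95 and -0.17 under B and at -1.41 and -2.61 under R light, without overlap, with a difference of -2.40 (SE 0.44, 5.28-fold, limma adjusted p = 0.0183). Each of these 3 calls was lost without the B light replicate 1 or the R light replicate 2, and those of *PSAG* and *PSBO2* also without the R light replicate 1.

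With sufficient Pi 2 of the 40 genes were lower under R light, where 0.205% of all genes were lower. They were *LHCA5* and *NPQ4*, which also passed with deficient Pi at -1.35 and -1.67. *NPQ4* was at 0.24 and 0.78 under B and at -2.08 and -2.18 under R light, a difference of -2.64 (SE 0.31, 6.24-fold, limma adjusted p = 0.0249) that lost its call without either R array. *LHCA5* was at -1.77 and -1.41 under B and at -3.26 and -3.28 under R light. Neither gene's groups overlapped, and *LHCA5* differed by -1.68 (SE 0.24, 3.21-fold, limma adjusted p = 0.0392), a call lost without B replicate 2 or either R array. The count was 4 without B replicate 1, 1 without B replicate 2 and 0 without either R array. The median of the 40 was -0.88, and 39 were negative (35 with the median of detected probes as the scale). In the light by Pi test in roots no gene of the set passed limma's threshold and 3 had an unadjusted p under 0.05, where 0.485% of all genes were lower and 0.748% higher.

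The Pi response in the roots of the light set concerned 1 gene under B light (4.21% of all genes were lower) and none under R light (0.732%), with medians of -0.54 and -0.68. Under R light 24 genes had an unadjusted p under 0.05. The gene under B light was *LHCB7*, at -1.37 and -1.31 with sufficient and -2.27 and -1.92 with deficient Pi, a difference of -0.76 (limma adjusted p = 0.0474) that was lost without either Pi-sufficient array. Its groups did not overlap, whereas the medians of the set within the 2 slides under B light had opposite signs, 0.17 and -1.01. These comparisons share their arrays with those between R and B light.

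Of the related genes 9 were lower under R light in roots with deficient Pi and 4 with sufficient Pi, and none was higher. The largest differences were those of *PETM*, a small subunit of the cytochrome complex, at -2.41, and of the early light-induced *ELIP2* at -2.55.

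In shoots of the light set with deficient Pi 36 of the 47 genes were higher under R than under B light and none was lower, where 8.94% of all genes were higher. Of the 36, 21 were higher by more than 2-fold, as were 4.31% of all genes. The median was 0.97, beside 0.07 over all genes. In 43 genes the groups did not overlap, but with 2 arrays per group this held for 35.1% of all genes in that direction. The counts were 16 of 21 for the antenna, 11 of 12 for PSI, 8 of 10 for PSII and 1 of 4 for the carriers, with medians of 1.23, 1.04, 0.71 and 0.46. The count was 13 without the B light replicate 2, 20 without the B light replicate 1, and 18 and 21 without the R light replicates 2 and 1. The medians within the 2 slides were 0.95 and 1.01.

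*LHCB1.4* (AT2G34430) differed most, at 3.68 and 3.49 under B and at 5.55 and 5.29 under R light. It was 3.57-fold higher under R light, without overlap (1.83, SE 0.19, limma adjusted p = 0.00285). *PSAE2* (AT2G20260), a stromal PSI subunit, was at 3.77 and 4.20 under B and at 5.37 and 5.41 under R light, and *PSBQ2* at 5.58 and 5.28 and at 6.58 and 6.62. Their groups did not overlap either, and they were 2.64-fold (1.40, SE 0.20, limma adjusted p = 0.0073) and 2.24-fold higher (1.17, SE 0.17, limma adjusted p = 0.00692). *PETE1* (AT1G76100), at 4.02 and 3.69 under B and at 4.93 and 4.89 under R light, was the only carrier that passed, with 2.08-fold (1.05, SE 0.19, limma adjusted p = 0.0148). That call was lost without the B replicate 2 or either R replicate.

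The 11 genes that did not pass held *NPQ4*, at 6.98 and 7.06 under B and 7.04 and 7.10 under R light, a difference of 0.05. They also held *LHCA5* (0.39), *LHCB4.1* (0.46), *LHCB4.3* (-0.34), *LHCB7* (-0.27), *PETC* (0.15), *PETE2* (0.46) and *FD2* (0.46). *LHCB2.1*, *PSAH1* and *PSBQ1* made up the rest. With sufficient Pi no gene passed between R and B light, where 0.169% of all genes were lower, and 2 had an unadjusted p under 0.05. The median was -0.13 with 34 negative and 13 positive differences. With the median of detected probes as the scale, under which the median of all genes was 0.51 (0.04 with the 75th percentile), the split was 4 and 43 and 2 genes passed, and with quantile normalization it was 24 and 23.

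The same arrays, compared by Pi level, showed a decrease under B light. With deficient Pi 46 of the 47 genes were lower than with sufficient Pi and none was higher, where 19.2% of all genes were lower. Of the 46, 42 were lower by more than 2-fold, as were 8.66% of all genes. The median was -1.34. All PSI, PSII and carrier genes and 20 of 21 antenna genes passed, with medians of -1.43 for PSI, -1.14 for PSII, -1.09 for the carriers and -1.43 for the antenna. *LHCB4.3*, at 3.78 and 4.14 with sufficient and 3.13 and 2.92 with deficient Pi, was the exception, with -0.94 (limma adjusted p = 0.0752). *LHCB1.4* fell most, from 5.77 and 5.36 to 3.68 and 3.49, which did not overlap, by 1.98 on the log2 scale (SE 0.19, 3.95-fold, limma adjusted p = 0.00082). With the median of detected probes as the scale, the median of all genes was 0.60, that of the set -0.69, and 29 genes passed. With quantile normalization the median of the set was -0.73. The medians within slides were -1.34 and -1.32.

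Under R light no gene passed limma's threshold between Pi levels, where 1.15% of all genes were lower, and 13 had an unadjusted p under 0.05. The median was -0.28, with 40 negative and 7 positive differences (37 and 10 with the median of detected probes, 24 and 23 with quantile normalization). *NPQ4* was at 7.47 and 7.49 with sufficient and at 7.04 and 7.10 with deficient Pi, and under B light at 7.80 and 8.11 and at 6.98 and 7.06.

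**Figure D5:**
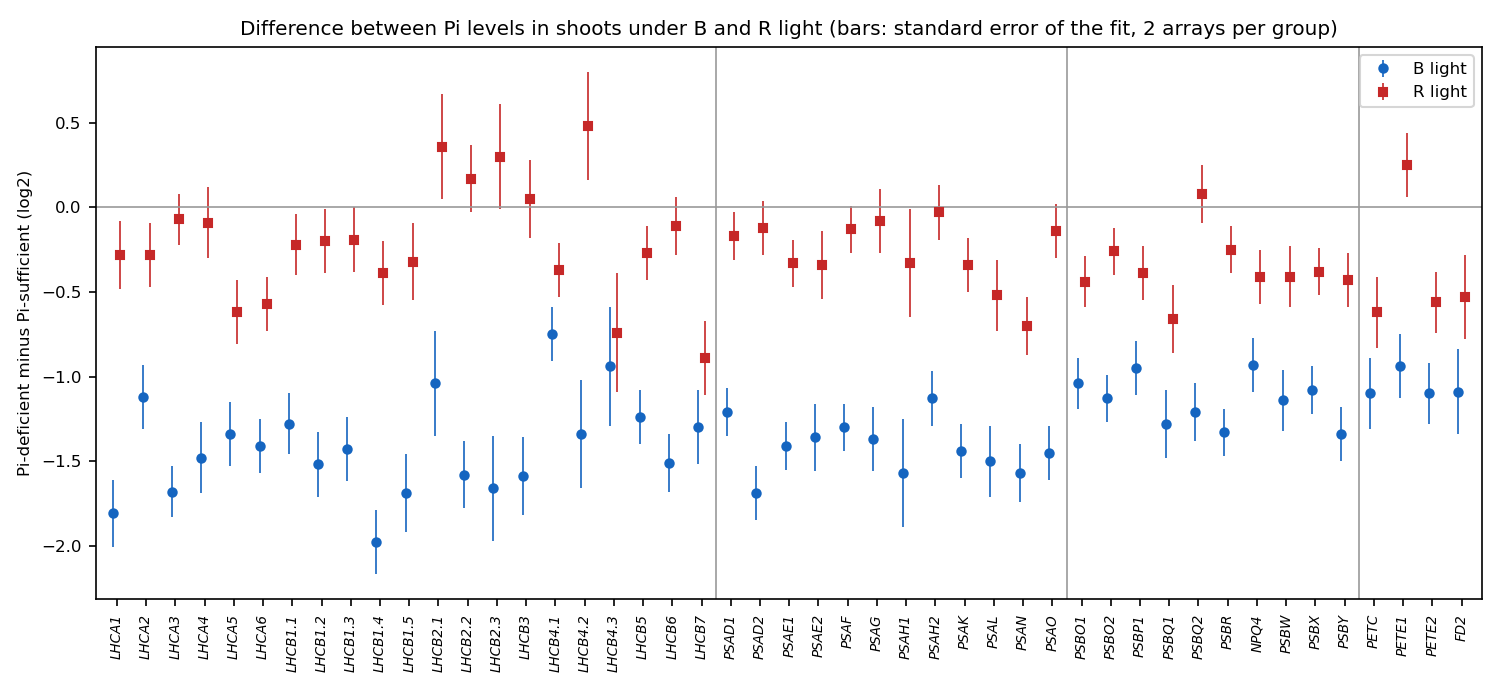
Log2 difference between deficient and sufficient Pi in shoots of the light set for each of the 47 genes under B light (circles) and R light (squares), with bars for the standard error of the fit and 2 arrays per group. All B light points lie between -1.98 and -0.75, below the R light point of the same gene.

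Whether the Pi response differed between R and B light was tested as an interaction. It was positive in all 47 genes with a median of 1.08, and 7 passed limma's threshold, where 0.549% of all genes were higher. The 7 were *LHCA3*, *LHCB1.4*, *LHCB2.2*, *LHCB6*, *PSAD2*, *PSAF* and *PSAO*, and 40 genes had an unadjusted p under 0.05. *LHCB2.2* (AT2G05070) had the largest of these interactions, 1.76 (limma adjusted p = 0.0436), with levels under B light of 9.80 and 9.76 with sufficient and 8.41 and 7.99 with deficient Pi. Under R light it was at 9.23 and 9.55 and at 9.66 and 9.46, which overlapped. Without the Pi-deficient R replicate 1 the count was 1, and without any 1 of the other 7 arrays it was 0. With normexp background correction it was 26, and with a 2-fold limit added it was 7. It was 0 without a filter on dim genes or with the median of detected probes as the scale, 1 with the authors' value table, 2 with quantile normalization, 3 with the replicate number as a block or the mean of all probes, and 4 with the brightest never-saturated probe.

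Of the 28 related genes of this set 21 were lower with deficient Pi under B light, led by the LHC-like *OHP1* at -1.77, and 1 was higher, the root-type reductase *RFNR1* at 0.61. Between R and B light with deficient Pi 3 were higher, led by the PSII subunit gene *PSBTN* at 0.78, and 1 was lower, the early light-induced *ELIP1* at -2.50. *ELIP1* was lower under R light with sufficient Pi as well, at -3.77.

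The Pi response was also compared in shoots of the white-light sets. In the WT of the *hy5-215* set 12 genes were lower and none was higher, where 8.64% of all genes were lower, and the median was -0.39. They were 3 antenna, 5 PSI, 2 PSII and 2 carrier genes. The split of 39 negative and 8 positive differences was 35 and 12 with the median of detected probes, where no gene passed, and 22 and 25 with quantile normalization, where 2 passed. The count was 2 without the Pi-sufficient replicate 2 or the Pi-deficient replicate 1, 4 without the Pi-deficient replicate 2 and 6 without the Pi-sufficient replicate 1. With the slide as a block 28 were lower and 2 higher, and the medians within slides were -0.67, -0.35 and -0.08. *PETC* was at 6.78, 6.63 and 6.51 with sufficient and 5.77, 6.01 and 6.05 with deficient Pi, without overlap, and fell by 0.69 (limma adjusted p = 0.00272). Saturated genes are among the 12, *LHCB1.3*, *PSBO1* and *PETE2* included, and with the brightest never-saturated probes 6 passed.

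In the WT of the *35S:BBX32-SRDX* set 3 genes were lower (11.0% of all genes), with a median of -0.13, and *PSAE2*, at 5.68, 5.80 and 5.68 with sufficient and 5.25, 5.36 and 5.55 with deficient Pi, differed by -0.33 (limma adjusted p = 0.04). Its groups did not overlap. The count was 3 without the Pi-deficient replicate 3 and 0 without any 1 of the other 5 arrays, and with the block 6 were lower and 1 higher. In *hy5-215* and *35S:BBX32-SRDX* shoots no gene passed limma's threshold (0.401% and 0.317% of all genes were lower), and 14 and 1 had an unadjusted p under 0.05. With the slide as a block 18 were lower and none higher in *hy5-215*, and none was lower and 1 higher in *35S:BBX32-SRDX*. The genotype by Pi tests in shoots had no gene of the set past the threshold and none at an unadjusted p under 0.05, where 0% of all genes passed in either direction in both lines.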

How the data were processed

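Total RNA was labelled with Cy3 and hybridised to one-colour Agilent arrays. The deposited processed signal intensity of each spot, made with Agilent Feature Extraction 9.1.3.1 per the submitters' processing notes, was used with the deposited flags for outlier, saturated and well-above-background spots. The authors' value table, on a natural log scale by comparison with these intensities, served as an alternative. For 43603 probes the log2 intensity, with the 75th percentile of each array subtracted, was averaged over spots without outlier flags. 36309 probes (83.3%) matched a gene through their accession, and the probe of highest mean stood for its gene. A gene entered a test only if some group in the fit had it well above background throughout. Differences were fitted with limma 3.58.1 in R 4.3.3, by set and organ (12 or 8 arrays; both organs together for comparisons between organs), with Benjamini-Hochberg adjustment over all genes tested. The *PSAG* spot was left out on 1 array, the WT root Pi-deficient replicate 2 of the *hy5-215* set, because of an outlier flag, and the fit used the other arrays. The script was tested on simulated data.

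Between 68.5% and 83.7% of the 43803 spots were well above background in the white-light sets and 45.0% to 66.7% in the light set, and the number of arrays limits the precision. Within an organ the replicate number names the slide. Deviations of same-numbered samples correlated with means of 0.12 to 0.34 by set and organ. Each pair was over 0.1 only in the *35S:BBX32-SRDX* set, where the numbers were taken to pair the samples. In roots this cutoff was narrow, with a mean of 0.34 (lowest 0.15) in that set and 0.32 (lowest 0.09) in the set of the *HY5* mutant. The reported counts and the fits without single arrays use no block in any set. For the *35S:BBX32-SRDX* set they thus leave out the pairing, and counts with the block are given as an alternative. The members and lists were chosen with earlier results of these data known. Values on every array are given for the gene of largest difference past the test in each complex in the line comparisons in roots and between R and B light, and elsewhere for the largest difference over all members. Promoter sequence was not used here.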

Additional observations from a re-analysis of the deposited data

Results flagged for a closer look

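Some differences themselves differed between conditions under limma's test. The Pi response in shoots differed between R and B light for 7 of the 47 genes, where 0.549% of all genes were higher. That count was 0 or 1 without any 1 of the 8 arrays, 0 without a filter on dim genes or with the median of detected probes as the scale, and 26 with normexp background correction. The *hy5-215* effect differed between roots and shoots for 38 genes with deficient and 39 with sufficient Pi. The *35S:BBX32-SRDX* effect did so for 25 genes with deficient Pi. These counts stood beside 2.20%, 2.06% and 1.69% of all genes, and with the replicate number as a block they were 40, 41 and 40. The effects of the 2 lines in roots differed for 1 gene with deficient Pi, *LHCA5*, and for 8 with sufficient Pi, beside 0.829% and 1.07% of all genes. With the block the counts for the 2 lines were 4 and 30. Groups of 2 or 3 arrays were too small to be tested for single arrays far from the rest.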

How the results depend on the processing

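Over 11 alternatives, 351 of 424 counts of genes past the test were within 1.5 times the reported count and 73 were not. A count of 0 in both fits was scored as within this range. The 351 include such comparisons and are therefore no measure of how stable the other counts were. None of 623 values of named genes changed sign, and 129 lost the test. The named genes were mostly those of largest difference in these data, so a stable sign was likely and does not extend to the other genes. The split of signs over the whole set in shoots changed with the scale. The cause of the changed counts and lost calls was not tested, except that fewer arrays or genes entered some fits. With a 2-fold limit added, the Pi response counted 0 in B light roots, in WT roots and shoots of the *35S:BBX32-SRDX* set and in WT shoots of the *hy5-215* set, and R against B light in Pi-deficient shoots 21. With the brightest never-saturated probe, the Pi response counted 2 in B and 1 in R light roots and 6 in WT shoots of the *hy5-215* set, and the light by Pi interaction in shoots 4. With the mean of all probes, R against B light counted 11 in Pi-deficient and 1 in Pi-sufficient roots, the Pi response in R light shoots 1 and the interaction 3. Without a filter on dim genes, the Pi response counted 16 in *35S:BBX32-SRDX* roots and 0 in B light roots and WT shoots of that set, and R against B light in roots and the interaction counted 0. With normexp, chosen with an offset of 50, the Pi response counted 0 in B light roots, 3 in WT roots of the *35S:BBX32-SRDX* set, 8 in *hy5-215* roots, 1 in R light shoots and 0 in WT shoots of the *35S:BBX32-SRDX* set. R against B light then counted 5 in Pi-deficient and 0 in Pi-sufficient roots, the *35S:BBX32-SRDX* by organ test with deficient Pi 10 and the light by Pi interaction 26. With only the compared groups in the fit, the Pi response in roots counted 0 in *35S:BBX32-SRDX*, 0 in B and 5 in R light, 4 in its WT and 16 in the WT of *hy5-215*. In shoots it counted 0 and 1 in these WT, and R against B light in Pi-sufficient roots 4. With quantile normalization, the Pi response counted 0 in B light roots and 2 in WT shoots of the *hy5-215* set, R against B light in Pi-sufficient roots 1 and the interaction 2. With the median of detected probes as the scale, the Pi response counted 0 in B light and 7 in *hy5-215* roots, 29 in B light shoots and 0 in WT shoots of both white-light sets. R against B light then counted 1 in Pi-sufficient roots and 2 in Pi-sufficient shoots, and the interaction 0. With the authors' value table, the Pi response counted 0 in B and 1 in R light roots, and in shoots 6 in the WT of *35S:BBX32-SRDX*, 22 in the WT of *hy5-215* and 1 in *hy5-215*. R against B light counted 4 and 0 in Pi-deficient and Pi-sufficient roots and 22 in Pi-deficient shoots, and the interaction 1.

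With the replicate number, which within an organ is the slide, as a block, the *35S:BBX32-SRDX* effect in Pi-sufficient roots counted 42 and its organ test with deficient Pi 40. The Pi response in roots then counted 43 in *35S:BBX32-SRDX*, 37 in its WT and 2 in B light. In shoots it counted 1 in *35S:BBX32-SRDX*, 7 in its WT, 30 in the WT of *hy5-215*, 18 in *hy5-215* and 1 in R light. R against B light in Pi-sufficient roots counted 4, the light by Pi interaction in shoots 3, and the difference between the lines 4 with deficient and 30 with sufficient Pi. The block changed no other count by over 1.5 times. With the slide as a random block, chosen after seeing the data, the *35S:BBX32-SRDX* by organ test counted 43 with deficient and 20 with sufficient Pi.

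With 1 array left out, the *hy5-215* effect in roots ranged from 39 to 43 with deficient and from 41 to 42 with sufficient Pi, and its organ test from 35 to 40 and from 38 to 40. The *35S:BBX32-SRDX* effect in roots ranged from 19 to 38 and from 0 to 4, and its organ test from 12 to 35 and from 0 to 1. The difference between the lines ranged from 1 to 2 with deficient and from 1 to 11 with sufficient Pi. The Pi response in roots ranged from 3 to 12 in *hy5-215*, from 11 to 33 in its WT, from 5 to 31 in *35S:BBX32-SRDX*, from 0 to 5 in its WT and from 0 to 1 in B light. In shoots it ranged from 2 to 15 in the WT of *hy5-215*, from 0 to 3 in the WT of *35S:BBX32-SRDX*, from 41 to 44 in B light and from 0 to 1 in R light. R against B light ranged from 0 to 17 in Pi-deficient and from 0 to 4 in Pi-sufficient roots and from 13 to 21 in Pi-deficient shoots, and the light by Pi interaction in shoots from 0 to 1. The root minus shoot counts stayed at 47, and the other counts, with no gene past the test, at 0. Where a fit left 1 array in a group, that array was assumed to vary like the other groups.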
